A study of Rattus norvegicus with 32 samples.

Results

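The comparison described here is that of iron-deficient (ID) with iron-sufficient (IS) rat pups that were given no insulin, measured by RNA sequencing of the hippocampus. It takes in 17 of the 32 libraries of the study, chosen by the diet and treatment in their labels, and covers every gene of the count table. The 9 ID control pups were born to dams fed a purified diet of 3 to 6 ppm iron from gestational day 3 to postnatal day 7, and the 8 IS control pups belonged to the iron-sufficient arm. All were wild type (WT), and the controls of both diets lacked the intranasal insulin that the remaining 15 pups received from postnatal day 8 to 21. Each library was made from 1 hippocampus of 1 pup. The labels give postnatal day 7 or 21 as the day of collection without saying which holds for a control pup, and name no litters, so the tests take account only of how much these pups vary. If several pups shared a dam, diet was given to fewer dams than pups. Sample titles begin with a number of unstated meaning, which was 71 for all IS control libraries and 69 (5 libraries) or 70 (4 libraries) for ID control. Diet and title number therefore cannot be told apart, and values of the 2 ID control sets are given side by side where they bear on a result.

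Iron enters brain cells when transferrin binds the transferrin receptor (Tfrc) and the pair is taken up; it is then used for heme, iron-sulfur clusters and many oxygenases, stored in ferritin or exported by ferroportin. When cellular iron is low, iron regulatory proteins bind the transcripts of these genes, stabilising that of Tfrc and blocking translation of ferritin, so that ferritin is regulated largely without a change in its RNA. Prolyl hydroxylases that mark hypoxia-inducible factors for degradation also need iron, and Tfrc is among the genes these factors can activate. In the developing hippocampus, iron is needed for energy metabolism, dendrite growth, synapse formation and myelination.

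Tfrc had the lowest p of the comparison, and its promoter is shown because it holds the core letters ACGTG bound by hypoxia-inducible factors. Of the 36 called genes with a gene symbol, 25 had an entry among the RefSeq promoters of the rat assembly GRCr8, and the 250 bases before the start site were searched on both strands. These letters were found for 2 of the 25, Tfrc and Mphosph6, and in 16.9% of all 27457 promoter windows. Both sequences are given 5′ to 3′ in the direction of transcription, with matches on either strand in capitals. The Tfrc window lies at chr11:81690319-81690568 on the minus strand and holds 1 match. The Mphosph6 window, at chr19:62778875-62779124 on the minus strand, holds 6, of which a pair overlap as the palindrome CACGTG.
Tfrc: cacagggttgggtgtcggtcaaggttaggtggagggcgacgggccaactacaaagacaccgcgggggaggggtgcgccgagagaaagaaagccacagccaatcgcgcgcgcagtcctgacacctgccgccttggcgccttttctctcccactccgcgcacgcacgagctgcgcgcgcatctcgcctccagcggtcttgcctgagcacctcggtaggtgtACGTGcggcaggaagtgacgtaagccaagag
Mphosph6: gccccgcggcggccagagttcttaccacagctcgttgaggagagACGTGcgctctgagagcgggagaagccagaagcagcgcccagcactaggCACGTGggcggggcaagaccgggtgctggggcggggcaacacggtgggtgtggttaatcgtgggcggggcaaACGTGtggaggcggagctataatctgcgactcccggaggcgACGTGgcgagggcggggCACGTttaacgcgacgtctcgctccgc
A match describes the letters of the window and says nothing of whether a factor binds there. The GC box GGGCGG was found in 10 of the 25 windows, against 32.4% of all promoters, and the TATA box letters TATAAA in 2 of the 25, against 13.1%.

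The labelled tissue was described with hippocampal neuron genes, and those named here were picked after their values were seen. Of the 14 genes on their list, 10 were tested, and the others did not pass the count filter. The neocortex list was also present, at a summed level of 342 to 718 CPM in ID control and 367 to 639 CPM in IS control. Prox1, a transcription factor of dentate granule cells, was at 92.8 to 135 CPM (counts scaled to the TMM-normalised library total) over the 17 libraries, Wfs1, a gene of CA1 neurons, at 296 to 450 CPM and Neurod6, a transcription factor of pyramidal neurons, at 181 to 250 CPM. Total counts were 19810449 to 26182907 per ID control and 19619345 to 27646299 per IS control library. Mitochondrially encoded transcripts took 7.47% to 9.30% and 7.63% to 9.26% of them. The libraries differed more in tissue from the ventricle: the summed level of the choroid plexus list was 1642 to 6823 CPM in ID control (median 3110) and 212 to 4183 CPM in IS control (median 604). Transcripts of the Y chromosome were above 1 CPM in 3 of 9 and 4 of 8 libraries.

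Of 15439 genes tested, 45 (0.291%) were called, meaning that their adjusted p was under 0.05 in edgeR's quasi-likelihood test with Benjamini-Hochberg adjustment over all genes. Of these, 27 (0.175%) were higher and 18 (0.117%) lower in ID control. Changes were mostly small, with a median absolute log2 fold change of 0.57, and 9 genes were at least 2-fold higher and 6 at least 2-fold lower. The ID and IS libraries did not overlap at all for 12 of the 45, against 22 (0.142%) of all genes tested. Since the 45 were selected by the same values, a larger share among them is built into the choice. In bulk tissue, fewer cells of a type and less RNA per cell cannot be told apart. DESeq2 called 114 genes and limma voom 242, and 21 were called once the mean choroid plexus level entered as a covariate. Dropping ID control replicate 7 or 9, or IS control replicate 1, 4 or 8, brought the number to between 23 and 28.

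**Figure D1:**
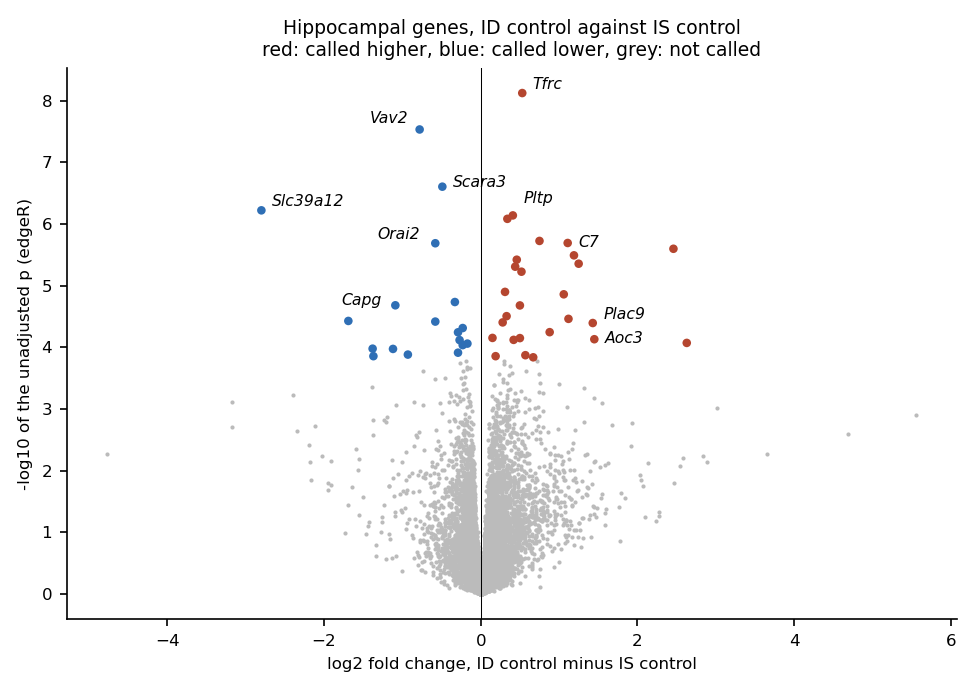
Each point is 1 of the 15439 genes, with its log2 fold change (ID control minus IS control) on the x axis and -log10 of its unadjusted edgeR p on the y axis; red and blue points are the 27 genes called higher and the 18 called lower. Tfrc and Vav2 stand at the top, and Slc39a12 is the called gene farthest to the left.

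Tfrc was the gene with the lowest p among those that rose. The transcript (ENSRNOG00000001766) was at 127 to 194 CPM in ID control (median 169) and 106 to 127 CPM in IS control (median 118). Before rounding, the lowest ID control library lay above the highest IS control library, so the groups did not overlap. The rise was 1.44-fold, from 117 ± 6.55 to 169 ± 19.7 CPM (SD, n = 8 and 9; log2 fold change 0.53, SE 0.07, adjusted p = 1.16e-04), and was alike in set 69 (0.50) and set 70 (0.56).

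Tfrc was the only member called among 31 tested genes for iron uptake, storage, export and sensing. The list's median log2 fold change was 0.05, against 0.01 over all genes, and 20 of the 31 values were positive (64.5%, against 52.1% of all genes). At an unadjusted p under 0.05, a threshold that 11.9% of all genes met, 5 members were higher and 1 lower, and 3 were higher on dropping ID control replicate 1 or 2, or IS control replicate 4 or 7. With the choroid plexus mean as a covariate, 12 of the 31 values were positive and the median was -0.01. The single member lower at that threshold was Ncoa4, the receptor that carries ferritin to lysosomes, at 141 ± 6.48 CPM and 156 ± 10.3 CPM in ID and IS control (-0.15 as a log2 fold change, SE 0.04, adjusted p = 0.102). It was called lower with the meninges mean (-0.18, adjusted p = 0.0448) or the Y-linked mean (-0.16, adjusted p = 0.0212) as a covariate.

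The other core iron genes described here were not called. Slc11a2, the divalent metal transporter that moves iron out of endosomes, had a log2 fold change of 0.04 (SE 0.04, adjusted p = 0.784), and Slc40a1, which encodes ferroportin, one of 0.34 (SE 0.13, adjusted p = 0.292). For Fth1, the ferritin heavy chain, levels were 868 ± 92.7 CPM in ID control and 792 ± 59.7 CPM in IS control (0.13, SE 0.07, adjusted p = 0.435). Its light chain gene Ftl1 was at no more than 1.40 CPM in any of the 17 libraries, a value made uncertain by near-identical copies that can take its reads. The iron sensors showed small differences as RNA: Aco1, which encodes iron regulatory protein 1, had 0.03 (SE 0.03), Ireb2, which encodes the second such protein, -0.04 (SE 0.06), and Fbxl5, which targets both for degradation when iron is present, 0.05 (SE 0.04). Their adjusted p were 0.747, 0.860 and 0.681. Cp, the copper enzyme that oxidises iron on its release, had 0.23 (SE 0.13, adjusted p = 0.479).

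Genes that depend on iron for their products were tested as further lists, and 0 of their members were called. For heme synthesis and iron-sulfur cluster assembly, the median over 28 genes was 0.03, and the lowest p belonged to Uros, an enzyme of heme synthesis (log2 fold change -0.30, adjusted p = 0.245). That value came from set 69 (-0.50) more than from set 70 (-0.08). Over 28 iron-dependent dioxygenases the median was -0.00, with the lowest p for P4ha2, a collagen prolyl hydroxylase subunit (0.24, adjusted p = 0.146). Among 19 hypoxia-inducible genes the median was 0.04, and the lowest p was that of Ero1a, which was lower (log2 fold change -0.15, adjusted p = 0.231). At an unadjusted p under 0.05, 4 of the 19 were higher and 1 lower, against 6.89% and 4.97% of all genes. With set 69 alone 1 was higher at that threshold, with set 70 alone 4, and with the choroid plexus mean as a covariate 2. Vegfa, the main growth factor for blood vessels, was at 93.1 ± 7.97 CPM against 83.7 ± 4.03 CPM (0.15, SE 0.06, adjusted p = 0.292). The ID control libraries straddled those of IS control, with 8 above all of them and 1 below.

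Nuclear genes of the respiratory chain mostly had small positive values, and 0 were called. Of 37 genes, 31 had positive values (83.8%, against 52.1% of all genes). The median was 0.05, and the lowest p was that of the complex I subunit Ndufb3 (log2 fold change 0.29, adjusted p = 0.220), with 0.16 in set 69 and 0.43 in set 70. The 13 mitochondrially encoded genes had a median of -0.06, made up of -0.26 in set 69 and 0.07 in set 70, and 0 were called. With the libraries of set 69 alone against IS control, 4 of the 13 were lower at an unadjusted p under 0.05, against 4.93% of all genes. In that setting 1 was called lower, as were 13 of all 15566 genes tested. With set 70 alone 0 were lower at the unadjusted threshold, against 4.59% of all genes.

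Vav2 had the lowest p among the genes that fell. This gene (ENSRNOG00000007422), a guanine nucleotide exchange factor that acts downstream of receptor tyrosine kinases, was at 16.0 to 18.8 CPM in ID control (median 17.9) and 23.8 to 37.0 CPM in IS control (median 30.9). The groups did not overlap, and the ID control libraries lay within a narrow band. Vav2 fell by 0.78 on the log2 scale (SE 0.11, adjusted p = 2.26e-04). Scara3 (ENSRNOG00000016177), a scavenger receptor linked to protection from oxidative stress, was at 46.0 to 57.4 CPM (median 53.9) against 60.2 to 88.1 CPM (median 73.3), again with no overlap (log2 fold change -0.49, SE 0.08, adjusted p = 0.00128). Orai2, a pore subunit of the channels that admit calcium when intracellular stores empty, was at 56.8 to 95.7 CPM (median 74.7) against 101 to 138 CPM (median 117). The groups were again apart, and Orai2 fell by 0.58 on the log2 scale (SE 0.10, adjusted p = 0.00352).

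Tested relatives of these genes were not called. On the list of store-operated calcium entry genes and Vav factors, 2 of 8 were called, both lower, against 0.117% of all genes. They are Vav2 and Orai2 themselves. Lists were chosen with earlier results known, and this one joins the families of both genes, so these calls were built into the choice. The log2 fold changes of the others were -0.15 for Orai1, -0.01 for Orai3, 0.02 for the store sensor Stim1, -0.03 for Stim2, -0.04 for Vav1 and 0.42 for Vav3 (adjusted p = 0.283). The median of the list was -0.04.

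Among called genes with a symbol, the largest decrease was in Slc39a12 (ENSRNOG00000025639), which encodes the zinc importer ZIP12. It was at 2.11 to 3.95 CPM in ID control (median 2.84) and 2.97 to 38.4 CPM in IS control (median 18.2). All ID control libraries were uniformly low, while 7 of 8 IS control libraries were at 15.0 CPM or more and IS control replicate 6, at 2.97 CPM, lay among the ID control values. The log2 fold change was -2.80 (SE 0.45, adjusted p = 0.00212), and it was nearly equal in set 69 (-2.79) and set 70 (-2.83). With the libraries of set 70 alone against IS control, Slc39a12 was not called. Slc39a12 was the only called gene among 20 tested zinc transporters and metallothioneins. The median of that list was -0.01, and the metallothionein genes Mt1 and Mt2A had -0.65 (adjusted p = 0.292) and -0.47 (adjusted p = 0.196).

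The other genes that fell had varied roles. Tubg1, the gamma-tubulin that nucleates microtubules, was at 30.9 to 37.9 CPM (median 33.4) against 38.1 to 44.4 CPM (median 40.8), without overlap (difference of -0.27 on the log2 scale, SE 0.06, adjusted p = 0.0346). Capg, which caps actin filaments, was low and fell by 1.09 on the log2 scale (adjusted p = 0.0161), with 8 of 9 ID control libraries below all IS control libraries. Its difference was -1.54 in set 69 and -0.70 in set 70. Rab36, a small GTPase of vesicle traffic, had a log2 fold change of -0.33 (adjusted p = 0.0158), and Ralgds, which activates the GTPase Ral, one of -0.23 (adjusted p = 0.0384). Cnot8, a deadenylase subunit of the complex that shortens poly(A) tails, had -0.23 (adjusted p = 0.0278), and Entpd5, a nucleotide phosphatase of the endoplasmic reticulum, -0.29 (adjusted p = 0.0303). Gramd2b was lower by a similar amount (-0.29, adjusted p = 0.0471). A pair of genes of low level completed this direction: Ubash3a, a negative regulator of T cell receptor signalling, was at most 1.52 CPM in any library (-1.38, adjusted p = 0.0418). Pcdhb6, a clustered protocadherin whose reads can be shared with near-identical neighbours and which is therefore uncertain, had -1.69 (adjusted p = 0.0239), and 5 of 9 ID control libraries were below all IS control libraries.

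Called genes of lipid handling, grouped here after their values were seen, were found in both directions. Pltp, the phospholipid transfer protein, was at 94.2 to 113 CPM in ID control (median 102) and 66.5 to 88.8 CPM in IS control (median 74.8). The groups did not overlap (log2 fold change 0.41, SE 0.07, adjusted p = 0.00212). Crot, the peroxisomal carnitine acyltransferase that passes shortened fatty acids on to mitochondria, was at 29.4 to 36.6 CPM (median 31.6) against 18.7 to 27.8 CPM (median 25.3). It too was higher in every ID control library (0.44, SE 0.08, adjusted p = 0.00543). Acadm, the medium-chain acyl-CoA dehydrogenase of mitochondrial fatty acid oxidation, rose by 0.33 (SE 0.07, adjusted p = 0.0229), with 8 of 9 libraries above all of IS control. Fasn, the fatty acid synthase, was lower, at 522 to 582 CPM (median 534) against 576 to 639 CPM (median 603). Its groups touched at a single ID control library, and the difference was small but tight (-0.17, SE 0.04, adjusted p = 0.0373). Crat, carnitine acetyltransferase, lay just outside the threshold (-0.18, adjusted p = 0.0622).

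**Figure D2:**
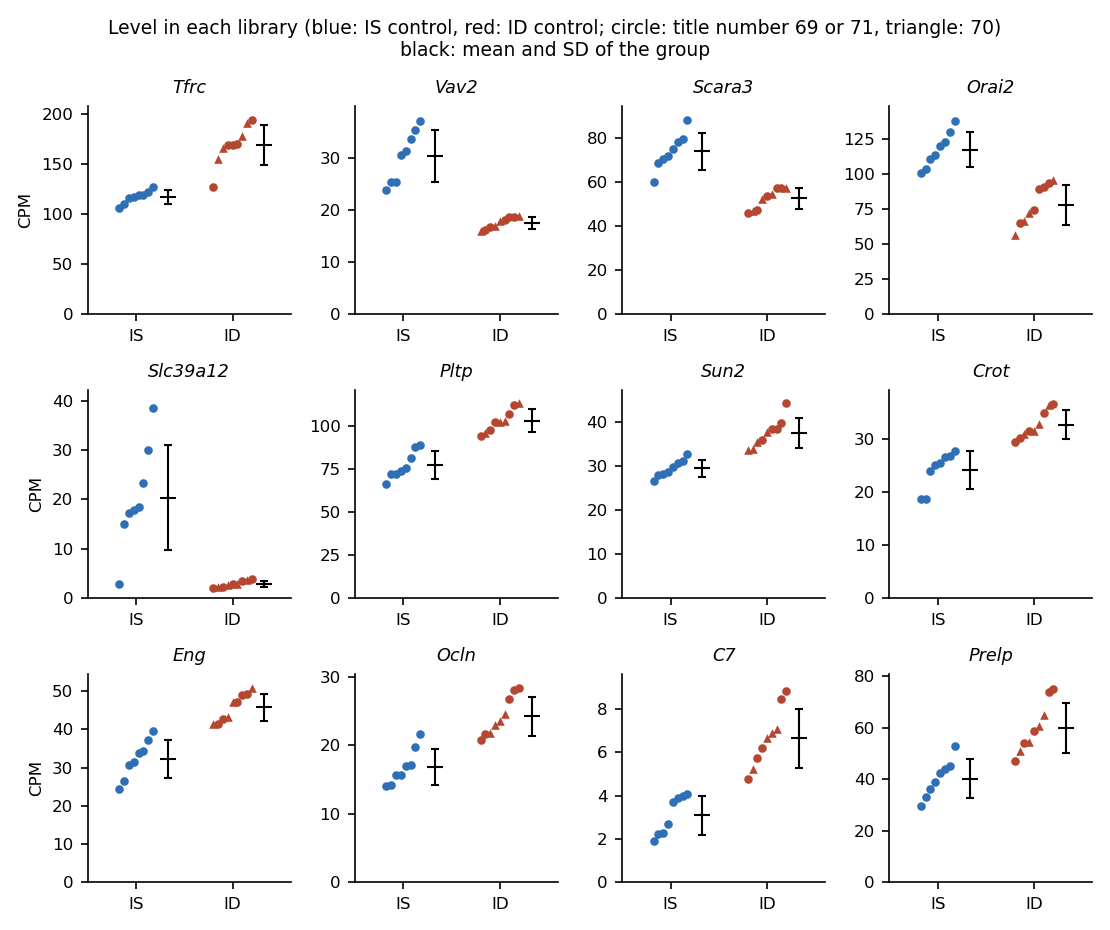
Level in CPM (y axis, from 0) of 12 called genes in each IS control (blue, n = 8) and ID control (red, n = 9) library; circles are title numbers 71 and 69, triangles title number 70, and black bars the mean and SD. The groups do not overlap for Tfrc, Vav2, Scara3, Orai2, Pltp, Sun2, Crot, Eng and C7, while 1 IS control library lies among the ID control values for Slc39a12.

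Called genes known from blood vessels, put together here after their values were seen, include Eng, Ocln, Cav2 and Aoc3, of which Ocln alone is on the endothelial list. Eng, the endothelial co-receptor for TGF-beta ligands, was at 41.3 to 50.7 CPM in ID control (median 47.1) and 24.5 to 39.5 CPM in IS control (median 32.6). The groups did not overlap (log2 fold change 0.50, SE 0.10, adjusted p = 0.0161). Ocln, which encodes the tight junction protein occludin, was at 20.7 to 28.3 CPM (median 23.5) against 14.1 to 21.6 CPM (median 16.4), with 8 of 9 ID control libraries above all of IS control (0.52, SE 0.10, adjusted p = 0.00610). Cav2, caveolin 2, a component of the membrane pits abundant in endothelium, rose by 0.28 (adjusted p = 0.0239). Aoc3, the vascular adhesion amine oxidase, rose by 1.45 (SE 0.32, adjusted p = 0.0346), at 2.11 to 10.3 CPM (median 2.91) against 0.402 to 2.23 CPM (median 1.40). ID control replicate 5 was far above the rest of its group, while 8 of the 9 ID control libraries lay above all of IS control.

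Of 22 tested endothelial and pericyte genes, 1 (Ocln) was called and 20 had positive values (90.9%, against 52.1% of all genes). At an unadjusted p under 0.05, 13 were higher and 0 lower, against 6.89% and 4.97% of all genes. The median was 0.22. Examples that were not called are Pdgfrb, the receptor that marks pericytes (log2 fold change 0.34, adjusted p = 0.0848), the endothelial receptors Kdr (0.46, adjusted p = 0.104) and Tie1 (0.33, adjusted p = 0.126), and Vtn, a pericyte transcript (0.30, adjusted p = 0.132). Other members gave smaller values, such as 0.02 for the glucose transporter Slc2a1 and 0.17 for the tight junction gene Cldn5. The lowest value on the list was -0.21.

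The summed level of the list was 1063 to 1143 CPM in ID control (median 1105) and 743 to 1046 CPM in IS control (median 989), so the sums did not overlap. The mean log2 CPM of its members did overlap, at 5.11 to 5.26 in ID control and 4.64 to 5.15 in IS control. IS control replicate 5 had the lowest sum; without it the median log2 fold change was 0.16, with 19 of 22 positive and 9 higher at the unadjusted threshold. With all IS control libraries kept, set 69 alone gave 9 members higher and 1 lower at that threshold, and set 70 alone 10 and 0. The list's median was 0.20 in set 69 and 0.24 in set 70. With the choroid plexus mean as a covariate it was 0.24, with 14 members higher at the unadjusted threshold and 0 called, and with the mean of the meninges list as a covariate it was 0.20.

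Prelp, Clec3b, C7 and Plac9 were also called higher; they were grouped after their values were seen and are on no list. Prelp, a proteoglycan of the extracellular matrix, was at 47.0 to 74.9 CPM in ID control (median 58.6) and 29.5 to 52.8 CPM in IS control (median 40.6), with 7 of 9 libraries above all of IS control (log2 fold change 0.57, SE 0.13, adjusted p = 0.0487). Clec3b, the plasminogen-binding protein tetranectin, had 0.67 (adjusted p = 0.0499), and C7, a late component of complement, was at 4.77 to 8.84 CPM (median 6.66) against 1.92 to 4.10 CPM (median 3.19). The C7 values did not overlap (1.11, SE 0.19, adjusted p = 0.00352). Plac9 had 1.43 (adjusted p = 0.0239), with 0.92 in set 69 and 1.85 in set 70. Mgp, the matrix Gla protein, lay just outside the threshold (0.72, adjusted p = 0.0537).

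On the list for meninges and fibroblasts 0 of 14 genes were called and 13 had positive values (92.9%, against 52.1% of all genes). At an unadjusted p under 0.05, 6 were higher, against 6.89% of all genes. The median was 0.21, with 0.28 in set 69 and 0.09 in set 70. Col3a1, a fibrillar collagen, had the lowest p (log2 fold change 0.75, adjusted p = 0.0702). Without ID control replicate 4, or IS control replicate 3 or 6, 1 member was called. Without IS control replicate 8, 9 values were positive. The summed level of the list was 626 to 1098 CPM in ID control and 501 to 875 CPM in IS control, which overlap. The choroid plexus list moved in the same direction with wide spread: all 15 values were positive, the median was 1.16 and 0 were called. Ttr, the thyroid hormone carrier made by choroid plexus, was at 1074 to 5102 CPM in ID control (median 2252) against 8.38 to 3024 CPM (median 282), and was not called (1.28, SE 0.91, adjusted p = 0.616). With the choroid plexus mean as a covariate, 11 of the 36 called genes with a symbol were still called: Tfrc, Vav2, Scara3, Slc39a12, Pltp, Sun2, Spint1, C7, Orai2, Entpd5 and Aoc3. With the meninges mean as a covariate 21 of the 36 were called. The part of these tissues in the vessel and matrix values was not tested further.

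**Figure D3:**
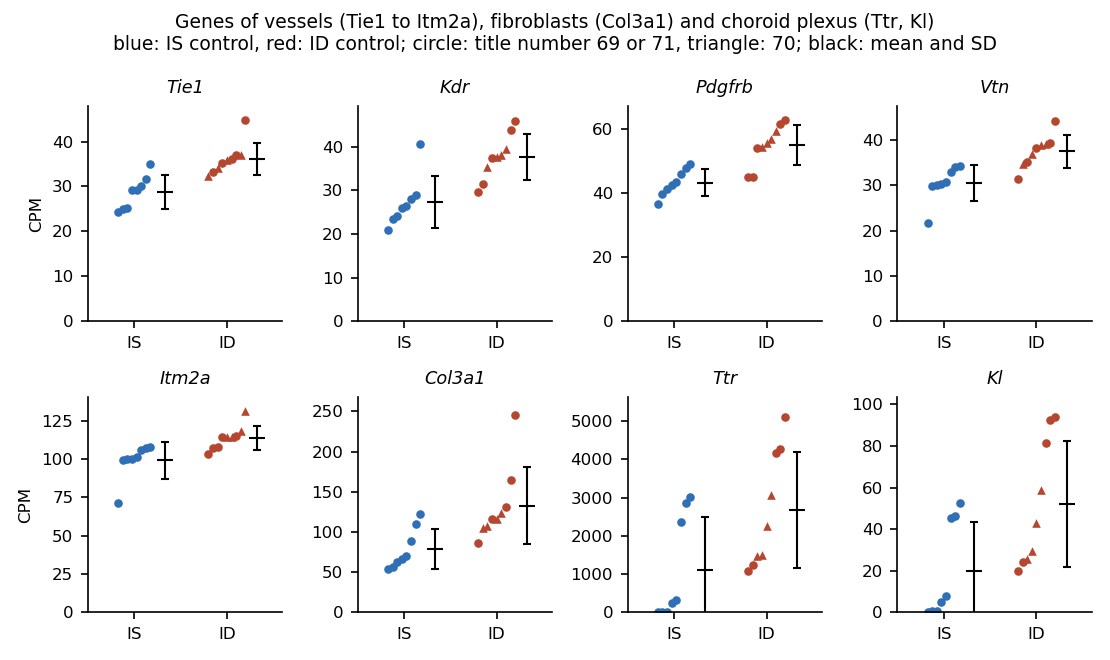
Level in CPM (y axis, from 0) of vessel genes (Tie1, Kdr, Pdgfrb, Vtn, Itm2a), a fibroblast gene (Col3a1) and choroid plexus genes (Ttr, Kl) in each library, with symbols as in the plot of called genes by library. Vessel gene means are higher in ID control, with overlap of single libraries, while Ttr ranges from 8.38 to 3024 CPM within IS control alone.

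Spint1, Serpinb1a and Serpinb9, which encode protease inhibitors, were grouped after their values were seen, and other inhibitors were not counted. Spint1, a membrane-bound inhibitor of serine proteases, had a log2 fold change of 0.75 (SE 0.13, adjusted p = 0.00352), and Serpinb1a, an inhibitor of neutrophil proteases, 1.12 (SE 0.23, adjusted p = 0.0239). Serpinb9, which inhibits granzyme B, was at 16.5 to 23.6 CPM (median 19.5) against 12.2 to 17.2 CPM (median 13.9), and rose by 0.46 (SE 0.08, adjusted p = 0.00488). For each of these 3 genes, 8 of 9 ID control libraries lay above all IS control libraries.

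The other called increases fell in varied cellular roles. Sun2, a protein of the inner nuclear membrane that links the nucleus to the cytoskeleton, was at 33.6 to 44.3 CPM in ID control (median 37.9) and 26.7 to 32.7 CPM in IS control (median 29.3). The groups did not overlap (log2 fold change 0.34, SE 0.06, adjusted p = 0.00212). Txndc17, a thioredoxin-like protein, also had no overlap, at 17.6 to 21.6 CPM against 14.1 to 17.2 CPM (0.31, adjusted p = 0.0122). Slfn5, a member of the schlafen family, rose by 0.42 (adjusted p = 0.0346). Mphosph6, a factor of the RNA exosome, rose by 0.50 (SE 0.11, adjusted p = 0.0346). Smaller rises were those of Vps4b, an ATPase of the ESCRT machinery (0.19, adjusted p = 0.0487), and Ccpg1, a receptor for degradation of the endoplasmic reticulum (0.15, adjusted p = 0.0346). Tmem45b was at most 1.44 CPM in any of the 17 libraries and rose by 0.88 (adjusted p = 0.0303). The 9 called genes known only by a locus or clone name were 5 higher, with log2 fold changes of 1.06 to 2.63, and 4 lower, with -0.58 to -1.37.

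Neuronal lists had 0 called members. Of 33 genes of neurotrophin signalling and the glutamatergic synapse, 8 had positive values (24.2%, against 52.1% of all genes), and the median was -0.05. At an unadjusted p under 0.05, 0 were higher and 4 lower, against 6.89% and 4.97% of all genes. With set 69 alone 8 were lower at that threshold and 5 values were positive, and with set 70 alone 1 and 13. With the choroid plexus mean as a covariate, 2 were lower and 14 values were positive. The lowest p was that of Homer1, a postsynaptic scaffold (log2 fold change -0.19, adjusted p = 0.272). Bdnf, a neurotrophin needed for the growth and plasticity of hippocampal synapses, was at 37.3 ± 2.57 CPM against 36.0 ± 4.45 CPM (0.05, SE 0.07, adjusted p = 0.840). Camk2a, the synaptic kinase subunit, had -0.08 (adjusted p = 0.677). Pvalb, which marks fast-spiking interneurons, had 0.10 (SE 0.10, adjusted p = 0.735), and 18 GABAergic interneuron genes had a median of -0.04.

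Activity-dependent, developmental and insulin signalling genes also gave 0 calls. Over 22 immediate early genes the median was 0.10, with 0.01 in set 69 and 0.16 in set 70. Among 19 genes of immature neurons and proliferation it was -0.03, and Dcx, a microtubule protein of young neurons, had -0.15 (adjusted p = 0.315). Across 34 insulin, IGF and mTOR signalling genes the median was -0.02. Eif4ebp1, the mTOR target that restrains translation, had 0.33 (SE 0.10, adjusted p = 0.171), and Insr, the insulin receptor, -0.01 (SE 0.06, adjusted p = 0.986).

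Myelin genes mostly had negative values, and the sets of ID control pups gave different medians. Of 22 myelin and oligodendrocyte genes, 1 had a positive value (4.55%, against 52.1% of all genes), 3 were lower at an unadjusted p under 0.05 (7 without ID control replicate 4, and 1 without ID control replicate 9 or IS control replicate 1), 0 were called and the median was -0.13. Set 69 had a median of -0.01 and set 70 one of -0.28. With the libraries of set 70 alone against IS control, 17 of the 22 were lower at the unadjusted threshold, against 4.59% of all genes, and 1 was called, against 0.235% of all genes. With those of set 69 alone, 0 were lower at that threshold, against 4.93% of all genes. Mbp, the major myelin basic protein, had -0.14 in all (adjusted p = 0.615), and Gjc3, an oligodendrocyte connexin, -0.30 (adjusted p = 0.271), with -0.09 in set 69 and -0.59 in set 70. When the ID control sets were compared with each other, 33 of 15008 genes (0.220%) were called.

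Glial and immune lists also had 0 called members. The median was -0.05 over 14 astrocyte genes, where Gfap, the astrocyte intermediate filament, had -0.25 (adjusted p = 0.315), and 0.02 over 13 microglia genes, where the purinergic receptor P2ry12 had 0.31 (adjusted p = 0.261). Of 21 interferon response genes, 16 had positive values (76.2%, against 52.1% of all genes). At an unadjusted p under 0.05, 8 were higher and 1 lower, against 6.89% and 4.97% of all genes. With set 69 alone 9 were higher at that threshold, with set 70 alone 3, and with the choroid plexus or meninges mean as a covariate 4. The median of this list was 0.21, made up of 0.32 in set 69 and 0.01 in set 70. Its lowest p was that of Ifit3 (1.10, adjusted p = 0.108), at no more than 1.45 CPM in any library. Blood, thalamus, striatum and neocortex lists had medians of 0.11, 0.05, 0.10 and 0.07, each with 0 genes called. The sets of ID control gave medians of opposite sign for all 4: 0.37 in set 69 and -0.15 in set 70 for blood, 0.12 and -0.02 for thalamus, 0.10 and -0.03 for striatum, and -0.02 and 0.16 for neocortex. For blood the median was -0.04 without ID control replicate 2, for thalamus -0.02 without ID control replicate 1, and for striatum -0.04 without IS control replicate 8.

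The same diet contrast was available in the 15 pups that received insulin, which share no library with the controls. ID insulin replicate 3 stood apart from its group, with a chi-square of 46.1 to 102 per gene against the others, and some values are therefore also given without it. Between ID insulin and IS insulin, 378 genes (2.45%) were called, and 751 without that library. Of the 45 genes called without insulin, 7 were called there in the same direction: Tfrc, Vav2, Scara3, Cnot8, Tmem45b, Vps4b and LOC108351520. Without ID insulin replicate 3 there were 8, C7 being the addition. In all, 30 of the 45 had the same sign with insulin, while 47.4% of all genes tested had the same sign in both contrasts. At an unadjusted p under 0.05, which 20.1% of all genes met in the insulin contrast, 17 of the 45 differed there in the same direction and 3 in the opposite one. The absolute change was smaller with insulin for 40 of the 45; since the genes were selected for their difference without insulin, a smaller value elsewhere is built into the choice.

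Tfrc, Vav2 and Scara3 were called in both contrasts, and their interaction terms were not called (adjusted p = 0.462, 0.412 and 0.398). For Tfrc the log2 fold change was 0.68 with insulin (SE 0.07, adjusted p = 1.79e-06) and 0.53 without. For Vav2 it was -0.52 with insulin (SE 0.12, adjusted p = 0.0160), and for Scara3 -0.68 (SE 0.08, adjusted p = 9.88e-06). With insulin, Eng had 0.04 (SE 0.11, adjusted p = 0.881; interaction adjusted p = 0.0978) and Crot -0.00 (SE 0.09, adjusted p = 0.999; interaction adjusted p = 0.0562, and 0.0298 without ID insulin replicate 3). The endothelial list had a median of -0.03 with insulin, and 0.03 without that library. The interaction of diet and insulin was called for 145 genes (0.939%), 7 of them among the 45, and without ID insulin replicate 3 for 594 genes, 13 of them among the 45. These included Slc39a12, whose diet effect with insulin was 0.83 (SE 0.38, adjusted p = 0.212), Pltp (-0.09) and Mphosph6 (-0.41, SE 0.12, adjusted p = 0.0511). Without ID insulin replicate 3, Mphosph6 was called lower with insulin (-0.46, SE 0.12, adjusted p = 0.0283), opposite to its rise without insulin. The interaction contains the values by which the 45 were selected.

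**Figure D4:**
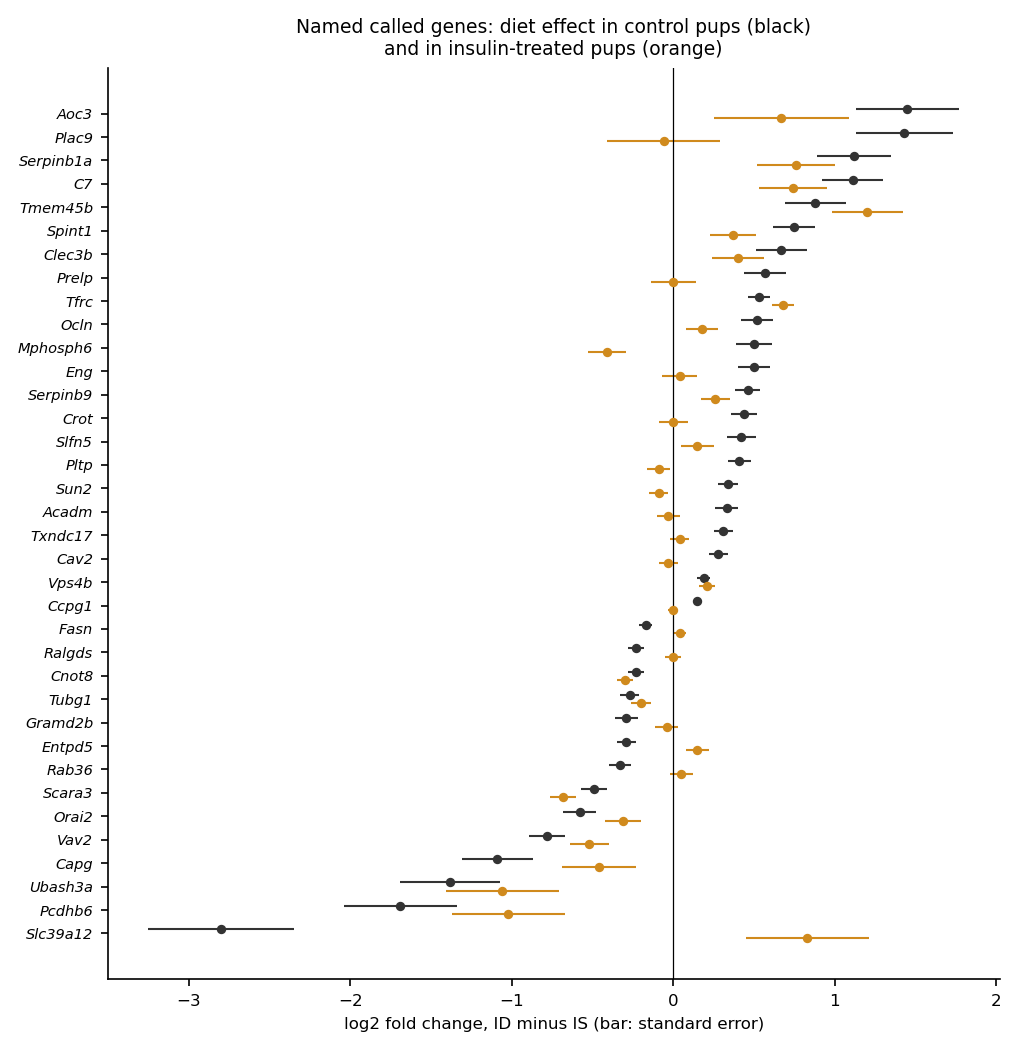
Log2 fold change, ID minus IS (x axis), of the 36 called genes with a symbol in control pups (black) and in insulin-treated pups (orange), with bars for the standard error. Tfrc, Vav2 and Scara3 keep their direction in both, while the orange point of Slc39a12 lies at 0.83, to the right of 0.

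How firmly single genes were called varied. Tfrc, Vav2, Scara3 and Pltp were called in all 14 alternative settings and without each of the 17 libraries in turn. Without each library 15 of the 36 genes with a symbol stayed called: those 4 with Slc39a12, Sun2, Spint1, C7, Orai2, Serpinb9, Crot, Ocln, Txndc17, Rab36 and Capg. With set 69 alone 15 of the 36 were called, and with set 70 alone 10. The threshold fell within a run of similar values: Clec3b (adjusted p = 0.0499), Vps4b and Prelp (both 0.0487) lay just inside, and Tecpr1 (log2 fold change -0.19), Mgp and Tceal9 (0.30), all at 0.0537, just outside.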

How the data were processed

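RNA was sequenced from 1 hippocampus per pup. The deposited table gives whole-number read counts for genes. Tools named in the submitters' processing notes are Trimmomatic (version 0.40), FastQC, HISAT2 (version 2.1.0), featureCounts and edgeR; Rnor_6.0 and mm10 are named as builds, without their roles. Strand use and the treatment of reads with several placements are not given in the sources used here, so overlapping, antisense and near-identical genes are uncertain.

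All 32 libraries entered an edgeR fit (edgeR 4.0.16, R 4.3.3) after TMM scaling and filterByExpr by group (15439 of 32883 genes kept), using the quasi-likelihood F-test (two-sided) with 1 coefficient per group and 28 residual degrees of freedom. SE is the absolute log2 fold change divided by the square root of F. P-values were adjusted by Benjamini-Hochberg over all genes tested. A fit with a coefficient for each ID control set gave the values of sets 69 and 70. The test was checked on simulated data. Libraries within a group differed by a chi-square per gene of at least 5.77, so none was a duplicate.

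Members and gene lists were chosen with earlier results of these data known. Of 530 listed genes, 493 were tested, and the others are not analysed here. Named were the called genes with a symbol, up to 10 genes just outside the threshold (adjusted p up to 0.1), the called or lowest-p member of each list, and chosen genes of iron, synapses, myelin and insulin; relatives of Vav2, Orai2 and Slc39a12, neuron markers, and vessel genes other than Ocln, Eng, Cav2 and Aoc3 were picked after their values were seen. Promoters came from RefSeq.

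Alternatives were DESeq2 (version 1.42.0), its size factors in edgeR, no count filter, at least 1 CPM in 7 libraries, a fit without the insulin groups, voom with quality weights in limma (version 3.58.1), the second title number as a block, Y-linked, choroid plexus or meninges means as covariates, each ID control set alone, the earlier quasi-likelihood method, and each library left out. The earlier method and removal of ID insulin replicate 3 (also for the interaction) were added after seeing the data.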

Additional observations from a re-analysis of the deposited data

Results flagged for a closer look

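Aoc3 reached 10.3 CPM in ID control replicate 5, while the other 8 libraries of that group were at 2.11 to 4.47 CPM, a gap beyond Dixon's 95% critical value. Chance flags about 5% of the groups examined, of which there were 106.

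The diet effect differed between insulin-treated and control pups, by edgeR's interaction term, for 6 named genes among those called. That term contains the control difference by which these genes were selected, which favours such a result. Over all 15439 genes tested, it was called for 145 (0.939%). The log2 difference (insulin minus control) was 3.64 for Slc39a12 (adjusted p = 0.00433), whose level was lower in ID than IS pups without insulin, and not called with it. It was -0.50 for Pltp (adjusted p = 0.0181), -0.43 for Sun2 (adjusted p = 0.0161) and -0.92 for Mphosph6 (adjusted p = 0.00519), which rose in ID pups without insulin. For Rab36 it was 0.39 (adjusted p = 0.0443) and for Entpd5 0.44 (adjusted p = 0.0230), both of which fell in ID pups without insulin. A seventh gene, AC135826.1, known by a clone name only, had 1.19 (adjusted p = 0.0405). Without ID insulin replicate 3, the adjusted p of the 6 genes with a symbol was 0.00292 to 0.0296.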

How the results depend on the processing

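The count of 45 called genes became 114 with DESeq2 and 242 with limma voom (44 of the 45 among each), 21 with the choroid plexus covariate (13 of the 45), 34 with title set 69 alone (19 of the 45) and 37 with set 70 alone (10 of the 45). Leaving out 1 library gave 23 to 61. The second title number belongs to different pups and did not pair the libraries (correlations of -0.19 to 0.06 over 7 pairs of libraries, in which 3 IS control libraries occur more than once); with it as a replicate block, 33 genes were called, 12 of them among the 45. Between ID insulin and IS insulin, the count of 378 became 723 with DESeq2, 146 with the compared groups alone, 177 with the replicate block and 751 without ID insulin replicate 3. The Y-linked gene Kdm5d, not called (log2 fold change -0.51), reversed under the replicate block (9.77, adjusted p = 7.44e-05). In IS control and both insulin groups, libraries with the lower second title numbers had Y-linked sums under 1 CPM. Those with the higher numbers had 96.2 CPM or more. In ID control the sum was 104, 116 and 111 CPM in replicates 4, 8 and 9, whose second title numbers were also low. The block therefore followed the Y-linked level in the other groups but not in ID control. The cause of the changes under these settings was not tested. Of the values of the named genes under these alternatives, 2252 kept their side of the threshold, 299 lost the call, 80 gained one and 1 reversed. A change of sign without a call was not counted as a reversal. Kdm5d, for example, had a positive value with the choroid plexus or meninges covariate and with set 70 alone. Genes near 1 CPM, such as Tmem45b and Ubash3a, rest on few reads.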
